A study of Saccharomyces cerevisiae with 15 samples.

Results

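The Fps1 channel and the Hog1 glycerol pathway of budding yeast were followed through 10 genes, chosen by name and each read by 1 probe set, out of 5588 yeast genes measured. FPS1 encodes the glycerol channel of the plasma membrane. ASK10 and RGC1 encode paralogous proteins that bind Fps1 and open it. SLN1 (an osmosensing histidine kinase), PBS2 (a MAP kinase kinase) and HOG1 (the MAP kinase) form the signalling line, and HOT1 encodes a transcription factor that acts with Hog1. GPD1 and GPD2 encode the paralogous glycerol 3-phosphate dehydrogenases that start glycerol synthesis, and STL1 encodes the symporter that takes glycerol up. The loci are YLL043W for FPS1, YGR097W for ASK10, YPR115W for RGC1, YIL147C for SLN1, YJL128C for PBS2 and YLR113W for HOG1. They are YMR172W for HOT1, YDL022W for GPD1, YOL059W for GPD2 and YDR536W for STL1.

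In yeast, high external osmolarity closes Fps1 and activates Hog1, so that glycerol is made and kept in the cell. Fps1 is also a route by which trivalent arsenic, arsenite, enters and leaves the cell, and Hog1 is known to restrain it under arsenite. Arsenate, the pentavalent form used here, enters through phosphate transporters and is reduced to arsenite inside the cell.

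The study measured RNA of Saccharomyces cerevisiae on 15 Affymetrix arrays in 5 groups of 3. The first group was wild type without an agent at 0 min, and the other 4 were 60 min after arsenate (AsV) and comprised wild type and the mutants yap1, yap8 and y1y8. The yap1 cells lack the stress transcription factor Yap1, yap8 cells lack the arsenic-responsive factor Yap8 (gene ARR1), and y1y8 cells lack both. The design text gives a dose of 2 mM, but it speaks of cultures grown in arsenate to exponential phase, and of double-mutant cells with empty plasmids or plasmids carrying YAP1 or YAP8. The labels tie no group to a plasmid, so what the groups share in this respect is not settled, and neither is whether the dose applies to the 60 min exposure. Nothing says that the 3 arrays of a group came from separate cultures, so p-values measure the spread between arrays, which may be technical. No group was untreated at 60 min, so arsenate and time changed together in wild type.

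The labels could be checked on the targeted genes. The 6 arrays labelled yap8 or y1y8 all had ARR1 called absent. The mean log2 signal of YAP1 was 9.21 in yap1 and 9.20 in y1y8, against 11.67 in treated wild type and 11.70 in yap8, and the probe set of YAP1 was still called present on all 6 arrays of yap1 and y1y8. The 4 markers of alpha cells (STE3, MF(ALPHA)1, MF(ALPHA)2 and SAG1) were present on 15 of 15 arrays. Of the 6 markers of a cells, MFA1 was called present on 2 arrays and MFA2 on 0, while STE2, BAR1, AGA2 and STE6 were called present on all 15. Present calls covered 98.4% to 99.3% of yeast probe sets on an array. Log2 group means of the a markers ran from 4.56 (AGA2) to 8.48 (STE6). Those of STE3, MF(ALPHA)1 and SAG1 ran from 9.17 to 12.73, and those of MF(ALPHA)2 from 6.55 to 12.17, though each probe set has its own brightness. Before scaling, the median yeast probe set of an array read between 548.1 and 933.8, while probe sets of another species read 1.8 to 2.9. Signals are relative after scaling: a change of all RNA alike would not show, and fewer cells and less RNA per cell cannot be told apart.

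Of the 10 genes, 9 were called present on all 15 arrays, and STL1 was called absent on 1 array of untreated wild type. Signals below are normalised intensities (linear scale), listed by replicate number, and changes are log2 differences between group means with their standard error (SE). They were tested with limma, with p-values adjusted by Benjamini-Hochberg over all 5588 genes and a threshold of 0.05. Levels of different genes are not compared, since each probe set has its own brightness.

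**Figure D1:**
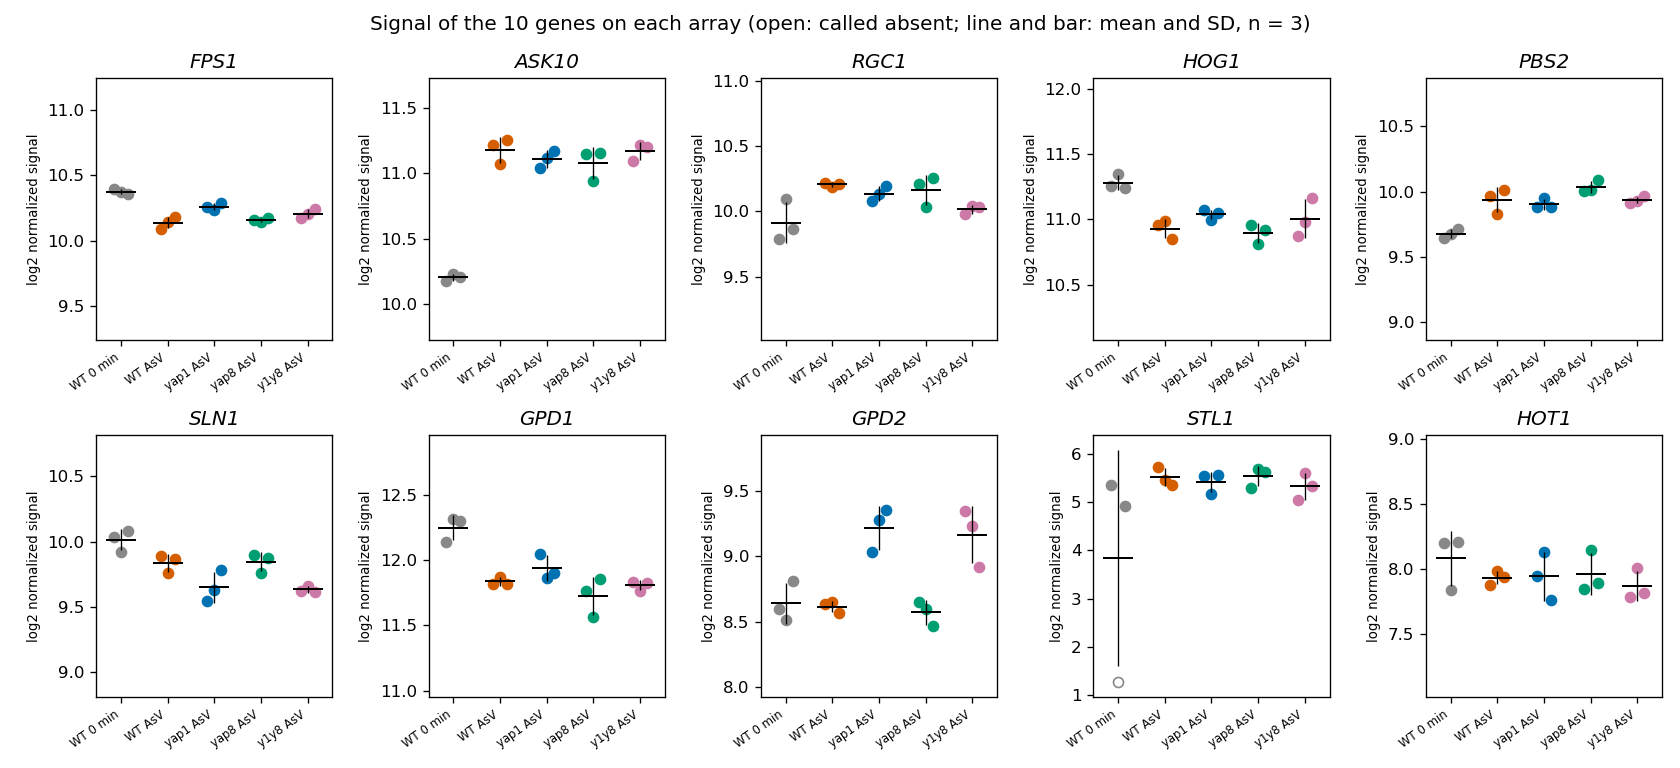
Log2 normalised signal (vertical axis, a separate range in each panel, wider for STL1) of the 10 genes on each of the 15 arrays by group (WT 0 min is untreated wild type, AsV is 60 min of arsenate). Points are arrays, an open point was called absent, and lines and bars are mean and SD (n = 3). ASK10 stands lowest in untreated wild type, GPD2 stands highest in yap1 and y1y8, and a single untreated array sets the wide bar of STL1.

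With 60 min of arsenate in wild type, transcripts of the proteins that open Fps1 rose while that of the channel fell slightly. ASK10 rose 1.96-fold, RGC1 and PBS2 rose by 0.29 and 0.26 on the log2 scale, and FPS1, HOG1, SLN1 and GPD1 fell by 0.24, 0.35, 0.17 and 0.41. GPD2 and HOT1 did not pass the test. In all 8 of 10 genes were called, 4 higher and 4 lower, STL1 among them on weak ground. The background was as large: 81.2% of all genes were called in this comparison, 41.9% higher and 39.2% lower. Groups did not overlap for 8 of the 10 genes and for 82.5% of all genes. The median size of change was 0.28 on the log2 scale over the 10 genes and 0.70 over all genes. Their median change was −0.08, against 0.03 over all genes. Of all genes, 34.9% were called with at least a 2-fold change, and of the 10 only STL1 was.

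The signal of FPS1 was 1346, 1329 and 1313 in untreated wild type and 1090.4, 1132 and 1158 with arsenate. All 3 treated arrays lay below all 3 untreated arrays. The log2 change was −0.24 ± 0.05 (SE, n = 3 against 3, 95% interval −0.34 to −0.13, limma adjusted p = 0.000474). Under arsenate FPS1 read 1223, 1207 and 1249 in yap1, 1142, 1128 and 1154 in yap8, and 1156, 1178 and 1211 in y1y8. Ordered by mean, untreated wild type was followed by yap1, y1y8, yap8 and treated wild type. Only the first step in this order passed the test (log2 difference 0.12, limma adjusted p = 0.0409). The difference of yap1 from treated wild type was also 0.12 but did not pass (limma adjusted p = 0.104). P-values were adjusted within each comparison, so these 2 outcomes do not place yap1 nearer to either wild-type group.

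The signal of ASK10 was 1159, 1202 and 1183 in untreated wild type and 2379, 2147 and 2439.8 with arsenate. The groups stood far apart, and every mutant array, at 1965 to 2385, also lay above the untreated ones. ASK10 rose by 0.97 ± 0.07 (95% interval 0.81 to 1.13, limma adjusted p = 3.31e-08), which ranked 994 among all genes by rise. It was the only one of the 10 genes listed in the authors' deposited table of this comparison, where its fold change was 1.78 with bounds of 1.64 and 1.94. Judged from its bounds, that table is a selection of genes, so absence from it does not show that a gene was unchanged. In the order of levels no step among the 4 arsenate groups passed the test, and the step from the lowest of them, yap8, to untreated wild type was 0.87 (limma adjusted p = 9.17e-08).

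The paralogue RGC1 read 882.6, 1090.7 and 931.3 without and 1189, 1166 and 1186 with arsenate. The groups did not overlap, but the untreated arrays were spread, with replicate 2 the highest. RGC1 rose by 0.29 ± 0.08 (95% interval 0.12 to 0.47, limma adjusted p = 0.00427), and no step between neighbours in its order of 5 group levels passed the test. The log2 ratio of ASK10 to RGC1 within an array, whose own level has no meaning because the probe sets differ, was 0.39, 0.14 and 0.34 without and 1.001, 0.881 and 1.04 with arsenate. The ratio was higher on every treated array, by 0.68 (two-sided exact permutation test, p = 0.1, the smallest that 3 against 3 can give).

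In the signalling line the kinase and its activating kinase changed in opposite directions. HOG1 read 2443, 2604 and 2424 without and 1984, 2028 and 1844 with arsenate, and fell by 0.35 ± 0.08 (95% interval −0.52 to −0.19, limma adjusted p = 0.000699). PBS2 read 800.5, 820.0 and 839.8 without and 1004, 910.9 and 1034 with arsenate, and rose by 0.26 ± 0.06 (95% interval 0.13 to 0.39, limma adjusted p = 0.00109). Neither gene had overlapping groups. SLN1 read 1048, 972.0 and 1084 without and 949.9, 866.6 and 933.7 with arsenate. It fell by 0.17 ± 0.07 (95% interval −0.33 to −0.02, limma adjusted p = 0.0382). The groups of SLN1 lay close, and its call ended without untreated replicate 1 or 3 (limma adjusted p = 0.0874 and 0.13) or treated replicate 2 or 3 (0.14 and 0.0562), with median centring (0.0612) and with only the arrays of both groups in the fit (0.0629). HOT1 had overlapping groups, at 294.4, 228.8 and 295.7 without and 235.5, 253.5 and 246.1 with arsenate, and its change of −0.15 ± 0.12 did not pass (limma adjusted p = 0.273). Untreated replicate 2 was the lowest HOT1 array of the 6, and without it the change was −0.27 (limma adjusted p = 0.0448).

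Of the enzymes that start glycerol synthesis, GPD1, the isoform known for its induction by osmotic stress, fell. Its signal was 4512.5, 5085 and 5034 without and 3618, 3754 and 3607 with arsenate, with no overlap. The log2 change was −0.41 ± 0.08 (95% interval −0.58 to −0.24, limma adjusted p = 0.000299), and −0.86 when arrays were centred on their medians in place of quantile normalisation. GPD2, the isoform known for its role in redox balance without oxygen, read 386.2, 364.3 and 450.2 without and 396.7, 401.8 and 378.7 with arsenate. These groups overlapped, and the change was −0.02 ± 0.12 (95% interval −0.27 to 0.23, limma adjusted p = 0.858). The log2 ratio of GPD1 to GPD2 was 3.55, 3.80 and 3.48 without and 3.19, 3.22 and 3.25 with arsenate. It was lower on every treated array, by 0.39 (two-sided exact permutation test, p = 0.1, the smallest possible), a change of −0.81 on unscaled signals.

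STL1 gave a dim signal, at 40.8, 2.4 and 30.3 without and 52.8, 44.0 and 41.1 with arsenate. The treated arrays lay above the untreated ones by a narrow margin, and the low value of untreated replicate 2 was the one called absent. The log2 change was 1.67 ± 0.73 (95% interval 0.08 to 3.25, limma adjusted p = 0.0498). Without that array it was 0.38 (limma adjusted p = 0.0818), and the call ended in 17 of 26 alternatives. With 16 added to each signal before taking logs it was 0.76 (limma adjusted p = 0.0263). STL1 is therefore given as values, not as a rise.

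**Figure D2:**
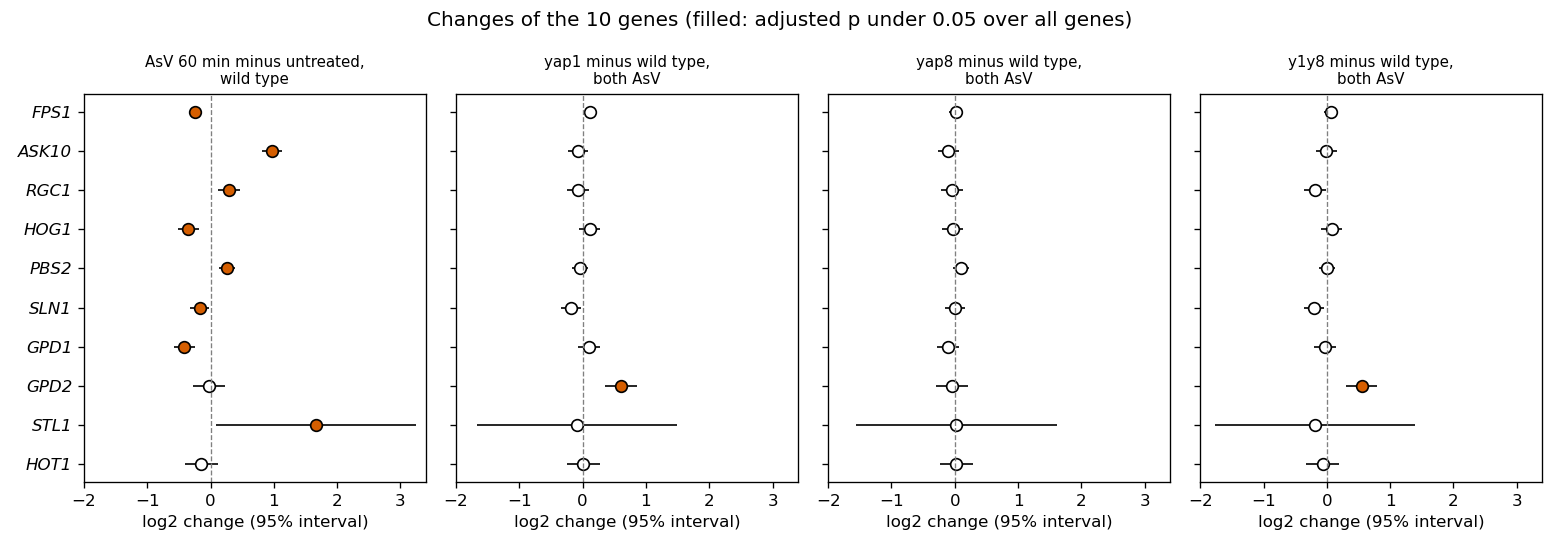
Log2 change (horizontal axis) with its 95% interval for the 10 genes in 4 comparisons, from limma on 3 arrays a group. Filled points passed an adjusted p of 0.05 over all genes. In wild type 8 points are filled, and between arsenate-treated genotypes only GPD2 is filled, in yap1 (0.60) and y1y8 (0.55).

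Loss of Yap1 under arsenate moved 1 of the 10 genes past the test: GPD2 was higher in yap1 than in treated wild type, against a background of 19% of all genes called. The signal of GPD2 was 522.7, 619.7 and 653.5 in yap1, and all 3 arrays lay above every wild-type array, treated or not. The log2 change from treated wild type was 0.60 ± 0.12 (95% interval 0.35 to 0.85, 1.52-fold, limma adjusted p = 0.00247), which ranked 107 among all genes by rise. GPD2 was also the only one of the 10 in the authors' deposited table for this comparison, with a fold change of 1.52 and bounds of 1.38 and 1.66. The median change of the 10 genes was −0.01 against 0.05 over all genes.

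The other 9 genes did not pass in yap1, which does not show that they were equal. SLN1 read 749.2, 790.6 and 880.8, with a change of −0.19 ± 0.07 (95% interval −0.34 to −0.03, limma adjusted p = 0.0923). Replicate 3 overlapped treated wild type, and without that array the change was −0.25 (limma adjusted p = 0.038). FPS1 lay above treated wild type on all 3 arrays, by 0.12 ± 0.05 (95% interval 0.02 to 0.23, limma adjusted p = 0.104). For ASK10, RGC1, HOG1, PBS2, GPD1 and HOT1 the changes lay between −0.07 and 0.11. For STL1 the change was −0.09, and the interval ran from −1.68 to 1.49. That width rests on the estimate of spread shared by all groups. Untreated wild type, which is not in this comparison, added most to it (SD 2.24 on the log2 scale). Treated wild type and yap1 had SDs of 0.19 and 0.21, so the interval does not show what their arrays alone could detect.

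Loss of Yap8 moved none of the 10 genes past the test, with 0.125% of all genes called. At an unadjusted p under 0.05 the count was also 0, as against 368 of all 5588 genes, and the adjusted count stayed 0 in all 26 alternatives. GPD2 read 402.6, 386.9 and 353.3 in yap8, overlapping treated wild type, with a change of −0.04 ± 0.12 (95% interval −0.30 to 0.21). The changes of all 10 genes lay between −0.11 for GPD1 and 0.10 for PBS2. PBS2 reached its highest group level in yap8 (1027, 1034 and 1091), a level that did not differ from treated wild type by the test.

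Loss of both factors gave the same count as loss of Yap1. In y1y8 against treated wild type 1 of 10 genes was called, with 20% of all genes called. GPD2 read 649.6, 601.6 and 484.8, all above the wild-type arrays, and the log2 change was 0.55 ± 0.12 (95% interval 0.30 to 0.80, 1.46-fold, limma adjusted p = 0.0043). SLN1, at 788.9, 810.6 and 786.1, lay below every treated wild-type array, but its change of −0.20 ± 0.07 did not pass (limma adjusted p = 0.063). RGC1 read 1009, 1055 and 1045 and also lay below treated wild type on every array, with a change of −0.19 ± 0.08 that did not pass (limma adjusted p = 0.119). Without untreated replicate 2, which changes only the shared estimate of spread, these adjusted p-values were 0.0454 and 0.048. The comparisons of yap1, yap8 and y1y8 with wild type share the same 3 treated wild-type arrays.

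The comparison of y1y8 with yap8 shares no array with that of yap1 with wild type, and it gives the effect of Yap1 loss again. There GPD2 was higher by 0.59 ± 0.12 (95% interval 0.34 to 0.85, limma adjusted p = 0.00255), the only call among the 10 genes, where 19.2% of all genes were called. In yap1 against yap8 it was again the only gene called, higher by 0.65 ± 0.12 (limma adjusted p = 0.0013, background 21.8%). Between y1y8 and yap1 none of the 10 was called, with 0.0895% of all genes called, and none had an unadjusted p under 0.05, as 380 of 5588 genes had. An interaction test asked whether the double loss departed from adding up the single ones, and for GPD2 the departure was −0.01 ± 0.16 (95% interval −0.36 to 0.35). None of the 10 genes passed that test, where 0.0537% of all genes were called, and none had an unadjusted p under 0.05, as 237 of 5588 genes had. The calls of GPD2 in these 4 comparisons of cells with and without Yap1 held in each of 26 alternatives, and the highest limma adjusted p among them was 0.0222. Many of the alternatives could not move the log2 change. The series matrix held the same values, GPD2 has 1 probe set, and several settings alter only the estimate of spread or the genes tested. Over all alternatives the change ran from 0.54 to 0.70 in yap1 and from 0.46 to 0.67 in y1y8, against treated wild type.

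Across the 5 groups, GPD2 was the gene whose arsenate-treated groups spread most, by 0.65 on the log2 scale, against 0.09 to 0.21 for the other 9. Its order of levels was yap1, y1y8, untreated wild type, treated wild type and yap8, and only the step from y1y8 to untreated wild type passed the test (0.53, limma adjusted p = 0.00085). For HOG1 and GPD1 untreated wild type stood highest and only the step to the next group, yap1, passed (0.24 and 0.31, limma adjusted p = 0.00915 and 0.00253). SLN1 also stood highest in untreated wild type, with a called step to yap8 (0.17, limma adjusted p = 0.0464). Its step from treated wild type to yap1 was 0.19 but did not pass (limma adjusted p = 0.0923). P-values were adjusted within each comparison, so steps from untreated wild type and steps between treated groups met different cut-offs. PBS2 stood lowest in untreated wild type, with a called step up to yap1 (0.22, limma adjusted p = 0.00305). For RGC1, STL1 and HOT1 no step between neighbours passed the test.

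In the mutants, HOG1 read 2147, 2045 and 2120.3 in yap1, 1982, 1798 and 1937 in yap8, and 1876, 2019 and 2296 in y1y8, where the arrays of y1y8 were the most spread. GPD1 read 4242, 3717 and 3826 in yap1, 3473, 3032 and 3699 in yap8, and 3655, 3473 and 3633 in y1y8. For both genes every mutant array lay below every untreated array. PBS2 read 942.6, 989.1 and 942.6 in yap1 and 964.8, 975.3 and 999.7 in y1y8, all above untreated wild type. HOT1 ran from 216.9 to 284.1 over the 9 mutant arrays, within the range of the wild-type arrays save for the lowest 3. STL1 ran from 33.1 to 51.8 over the same arrays, and all of them were called present.

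Counts against untreated wild type were close to the background as well. Against untreated wild type, 8 of the 10 genes were called in yap1, 8 in yap8 and 7 in y1y8, with 81.7%, 82.1% and 82% of all genes called. These 3 comparisons share the untreated arrays, and genotype, agent and time change together in them.

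**Figure D3:**
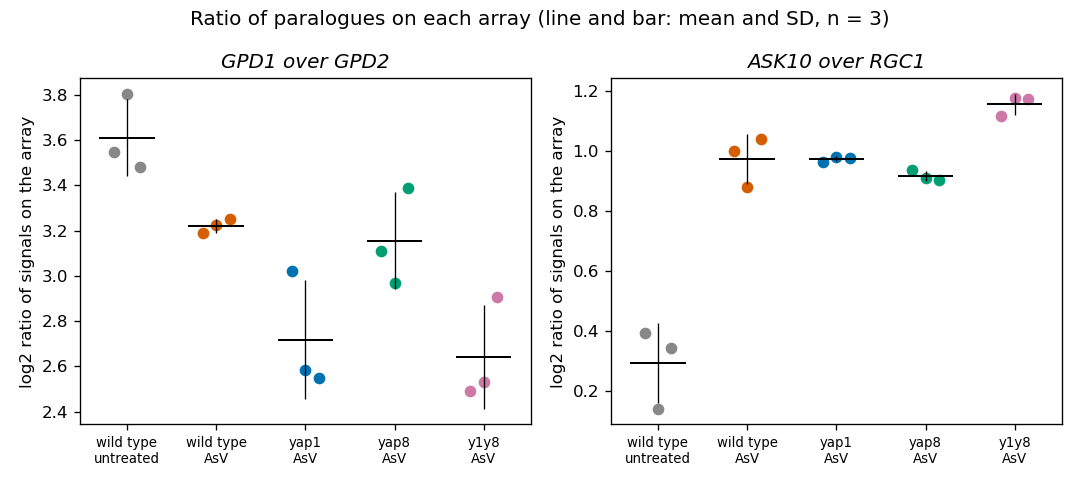
Log2 ratio of the signals of GPD1 to GPD2 (left) and ASK10 to RGC1 (right) on each array, by group, with lines and bars for mean and SD (n = 3). The vertical ranges differ and do not start at 0, and only differences between groups can be read. The ratio of GPD1 to GPD2 is lowest in yap1 and y1y8, and that of ASK10 to RGC1 is lowest in untreated wild type.

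The ratio of GPD1 to GPD2 set the paralogues side by side in the mutants. Its log2 value was 3.02, 2.58 and 2.55 in yap1 and 2.49, 2.53 and 2.91 in y1y8, all below the 3 arrays of treated wild type. The differences were −0.50 in yap1 and −0.58 in y1y8 (two-sided exact permutation tests, p = 0.1 each, the smallest possible). On unscaled signals they were −0.43 (exact permutation p = 0.2) and −0.60 (exact permutation p = 0.1). In yap8 the ratio was 3.11, 2.97 and 3.39, which overlapped wild type (difference −0.07, exact permutation p = 0.7). The ratio of ASK10 to RGC1 was 1.12, 1.18 and 1.18 in y1y8, above all treated wild-type arrays by 0.18 (exact permutation p = 0.1). It differed from wild type by 0.00 in yap1 and −0.06 in yap8 (exact permutation p = 1 and 0.4).

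The wider pathway was read from 58 further genes in lists by role, of which 56 had a probe set. With arsenate in wild type 44 of the 56 were called, 32 higher and 12 lower, which is 78.6% against 81.2% of all genes. Their median change was 0.40, against 0.03 over all genes. The regulators of Fps1 had 4 of 6 members higher and 0 lower (median 0.55), ASK10 and RGC1 included. Calls covered 66.7% of this list, against 81.2% of all genes (41.9% higher and 39.2% lower). YPK2, a TORC2-dependent kinase whose paralogue Ypk1 phosphorylates Fps1, read 282.3, 416.9 and 426.1 without and 3169, 2592 and 3171 with arsenate. It rose by 3.01 ± 0.17 (8.04-fold, limma adjusted p = 2.01e-09), and SLM1, which encodes a partner of TORC2, rose by 0.80 ± 0.09. Among the channel genes, 2 of 3 were lower, against 39.2% of all genes. Beside FPS1, the aquaporin gene AQY1 was called present on 1 of 3 untreated arrays and 0 of 3 treated ones. Its mean log2 signals were 5.52 and 4.32 (limma adjusted p = 0.00129), and no fold is given from such dim signals.

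The lists of the Sln1 branch, the Sho1 branch and the phosphatases held calls in both directions, as all genes did (41.9% higher and 39.2% lower). The Sln1 branch, SLN1 itself included, had 3 of 6 members higher and 2 lower (median 0.08). The lower ones were SLN1, whose call ended in 6 of 26 alternatives, and the response regulator gene SKN7, down by 0.62. The MAP kinase kinase kinase gene SSK22 was up by 1.97 ± 0.13 and the phosphotransfer protein gene YPD1 up by 0.40. The Sho1 branch had 3 of 9 higher and 6 lower (median −0.34). Its sensor genes SHO1 and MSB2 fell by 1.94 ± 0.09 and 1.90 ± 0.10, while the kinase gene STE11 and its adaptor gene STE50 rose by 1.63 ± 0.07 and 1.07 ± 0.08. Of the phosphatase list, 4 of 6 were higher and 1 lower (median 0.54). PTP2 and PTP3, which encode tyrosine phosphatases of Hog1, moved apart: PTP2 rose by 1.56 ± 0.06 and PTP3 fell by 1.89 ± 0.14. NBP2, whose product brings the phosphatase Ptc1 to Pbs2, rose by 1.43 ± 0.08.

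The counts below Hog1 stand against the same background of 41.9% of all genes higher and 39.2% lower. The transcription factors and kinases, HOT1 included, had 4 of 8 higher and 1 lower (median 0.13). MSN1 was up by 1.43 ± 0.08, SMP1 up by 0.78 ± 0.18 and the kinase gene RCK1 down by 1.14 ± 0.19. RCK1 was dim, with mean signals of 58.4 without and 26.6 with arsenate. Glycerol synthesis had 0 of 4 higher and 2 lower (median −0.24). These were GPD1 and the glycerol 3-phosphatase gene GPP1, which fell by 0.48 ± 0.10 (limma adjusted p = 0.000343) and by 0.96 with median centring. Glycerol uptake and use had 5 of 9 higher and 1 lower (median 0.78), STL1 included. GCY1, a glycerol dehydrogenase gene, rose by 2.40 ± 0.22, and the dihydroxyacetone kinase gene DAK2 was called absent on all 3 untreated and present on 2 of 3 treated arrays, with mean log2 signals of 4.77 and 6.87 (limma adjusted p = 6.98e-06). GUP2, named for glycerol uptake, fell by 1.003 ± 0.142, with low mean signals of 131.9 without and 66.1 with arsenate. The list of osmotic stress target genes had 12 of 13 higher and 0 lower (median 1.63), led by GRE1, a hydrophilin gene, at 3.41 ± 0.21, and the aldehyde dehydrogenase gene ALD3 at 2.50 ± 0.43. The same list holds HSP12, CTT1, DDR2, RTC3 and CHA1. It also holds GRE2 and YML131W, which were lower in yap1 than in treated wild type. Like the other lists, it was chosen with earlier results of these data known. Whether Hog1 acted on these genes here was not tested. ALD3 and GPP1 have close paralogues, ALD2 and GPP2, and cross-hybridisation was not tested.

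**Figure D4:**
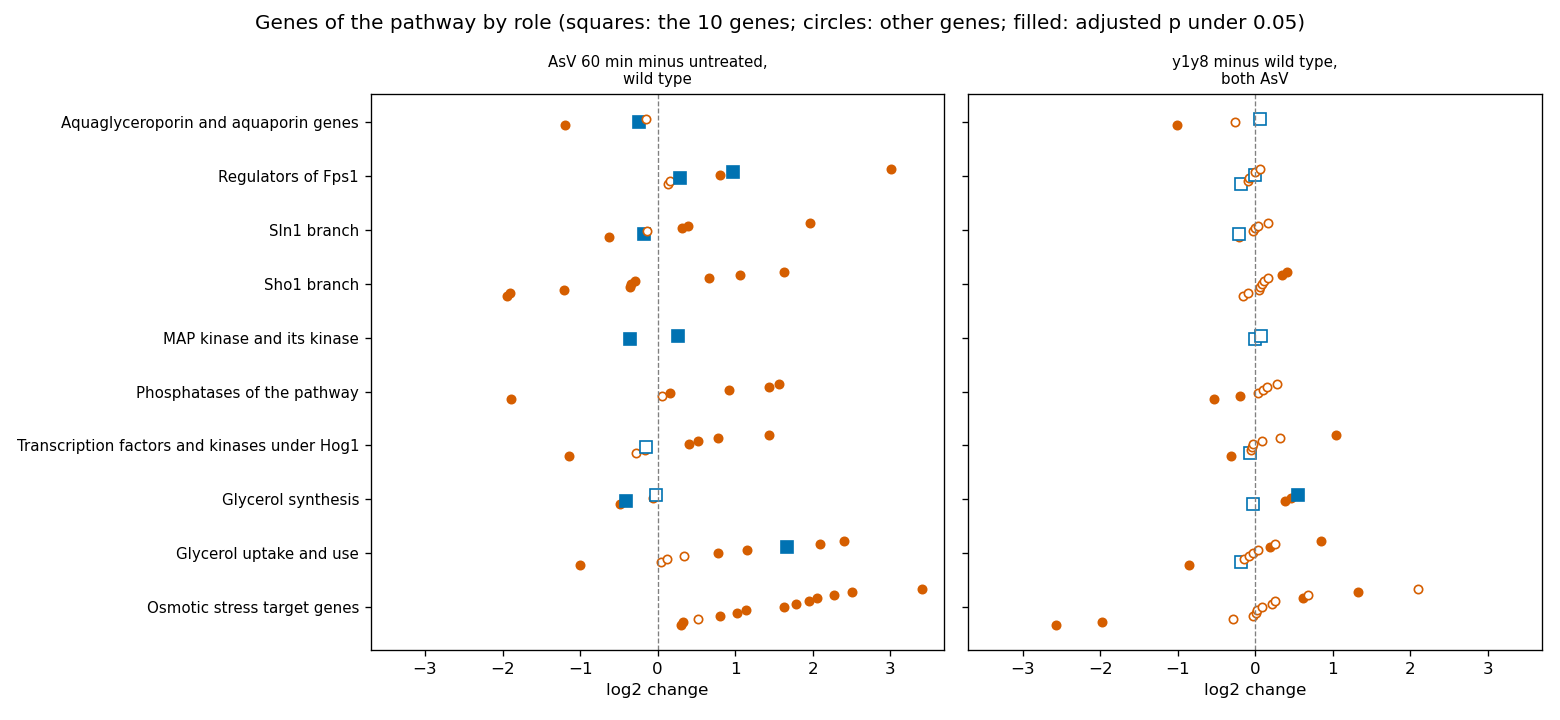
Log2 change (horizontal axis) of the pathway genes by role, for arsenate in wild type (left) and y1y8 against wild type under arsenate (right). Squares are the 10 genes, circles the other genes of each list, and filled symbols passed an adjusted p of 0.05. On the left 12 of 13 osmotic stress target genes are filled and higher, and on the right 3 of 4 glycerol synthesis genes are.

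In the glycerol synthesis list, which counts GPD2 itself, GPP2 was called in yap1 and GPP1 and GPP2 in y1y8, all higher, and GPD1 in neither. That makes 2 of 4 members called in yap1 and 3 of 4 in y1y8, where 19% and 20% of all genes were called (537 and 563 of 5588 genes higher). Medians were 0.30 and 0.42, against 0.05 over all genes in both comparisons. In y1y8 against yap8, which shares no array with yap1 against wild type, 3 of 4 were higher (median 0.33), where 19.2% of all genes were called, and the call of GPP1 there (limma adjusted p = 0.0431) ended in 11 of 26 alternatives. GPP2, which encodes the second glycerol 3-phosphatase, read 4042, 4110.4 and 4207 in treated wild type, 4693, 5426 and 5426 in yap1, and 5444, 5316 and 5379.5 in y1y8. Every array without Yap1 lay above every treated wild-type array, and GPP2 was higher by 0.33 ± 0.07 in yap1 and 0.39 ± 0.07 in y1y8 (limma adjusted p = 0.00317 and 0.000863). GPP1 read 3235, 3931 and 4284 in treated wild type, 4311, 4921 and 4466 in yap1, and 4981, 5145 and 5541 in y1y8. It was higher by 0.46 ± 0.10 in y1y8 (limma adjusted p = 0.0037, but not past the threshold with median centring). In yap1 its difference of 0.27 ± 0.10 did not pass (limma adjusted p = 0.0692), nor did the difference between the double mutant and yap1 (0.19 ± 0.10, limma adjusted p = 0.752). GPD1 passed in none of these comparisons, with a change of −0.03 in y1y8 (limma adjusted p = 0.836).

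Of the 56 further pathway genes, 11 were called in yap1 (5 higher and 6 lower, 19.6% against 19% of all genes) and 16 in y1y8 (9 higher and 7 lower, 28.6% against 20%). The count was 17 in y1y8 against yap8 (30.4% against 19.2% of all genes) and 12 in yap1 against yap8 (21.4% against 21.8%). It was 0 in yap8 against wild type, in y1y8 against yap1 and in the interaction test, where 0.125%, 0.0895% and 0.0537% of all genes were called. The aquaporin gene AQY2 read 113.8, 128.3 and 174.4 in treated wild type and 63.5, 77.1 and 55.6 in yap1. These groups did not overlap, and AQY2 fell by 1.08 ± 0.19 in yap1 and by 1.01 ± 0.19 in y1y8 (limma adjusted p = 0.00129 and 0.00188). The largest falls among the osmotic stress target genes were those of the reductase-family genes YML131W (−2.65 ± 0.17 in yap1 and −2.57 ± 0.17 in y1y8) and GRE2 (−2.09 ± 0.21 and −1.98 ± 0.21). GRE1 of the same list was higher, by 1.03 ± 0.21 and 1.32 ± 0.21. The aldo-keto reductase gene YPR1 fell by 0.84 ± 0.06 in yap1 and 0.85 ± 0.06 in y1y8, and the phosphatase gene PTC2 by 0.47 ± 0.06 and 0.53 ± 0.06.

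Also called in both mutants against wild type were OPY2, an anchor of the Sho1 branch (0.31 ± 0.07 in yap1 and 0.35 ± 0.07 in y1y8), MSN1 (−0.31 ± 0.08 and −0.32 ± 0.08), RCK1 (0.75 ± 0.19 and 1.05 ± 0.19) and the dihydroxyacetone kinase gene DAK1 (0.24 ± 0.06 and 0.19 ± 0.06). RCK1 was dim in these groups, with mean signals of 26.6 in treated wild type, 44.9 in yap1 and 56.2 in y1y8. SHO1 (0.41 ± 0.09), PTC1 (−0.20 ± 0.06), DAK2 (0.85 ± 0.27) and NQM1 (0.61 ± 0.18) were called in y1y8 against wild type and not in yap1, but their difference between y1y8 and yap1 did not pass the test. The calls of DAK1, DAK2, PTC1 and NQM1 in y1y8 ended in 16, 11, 6 and 6 of 26 alternatives. Those of RCK1, MSN1 and DAK1 in yap1 ended in 2, 1 and 1. In y1y8 against yap8, SSK1 (0.30 ± 0.09), PTP3 (0.45 ± 0.14) and MSN4 (0.43 ± 0.12) were also called, and these calls ended in 3, 7 and 3 of 26 alternatives. In yap1 against yap8, MSN4 (0.41 ± 0.12) and MSB2 (0.42 ± 0.10) were called, which ended in 6 and 1.

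The genes most like 3 of the 10 in pattern were found by the root mean square difference of the 5 group means, each gene centred on its own mean. For GPD2 the nearest were URN1 (0.0578), ICY1 (0.0592) and TDA1 (0.0665), and 10 genes lay within 0.1. The group means of ICY1, for example, were 11.08 and 10.998 in untreated and treated wild type, 11.56 in yap1, 10.94 in yap8 and 11.67 in y1y8. For ASK10 the nearest were CYS3 (0.0276), MCM21 (0.0347) and CRH1 (0.0372), and 245 genes lay within 0.1, a common pattern on these arrays. For STL1 they were RIB5 (0.0225), STE11 (0.0322) and MNR2 (0.0402), a match that rests on the untreated mean of STL1 and so on its array called absent.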

How the data were processed

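Per the file headers, the deposited file of each array gives a linear intensity (Signal) and a detection call for 10928 probe sets. The authors did not scale them between arrays, judged from the values, and the series matrix held the same values. Partek is named, with no version, per the submitters' processing notes, and how probes were summarised is not stated there. The authors' deposited comparison tables hold signed fold changes, treated as a score. They look like selections, since no gene looked up in them had a lower bound under 1.2 in size.

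Probe sets were named from the platform annotation and the authors' workbook: 5638 matched 1 yeast gene, which left 5588 genes (the brightest probe set of 48 genes with several). YFL054C and ENA1 were not matched. Intensities were quantile normalised over all probe sets, values under 1 set to 1, and log2 taken. A group-means model over all 15 arrays was fitted with limma 3.58.1 (R 4.3.3, two-sided, Benjamini-Hochberg, threshold 0.05) for 8 comparisons, plus 3 of mutants with untreated wild type; it was tested on simulated data. Where every array in 1 of the groups compared was called absent, no fold is given. The number of arrays limits the precision.

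The 10 genes and the lists were chosen with earlier results of these data known. All 10 are named, and of each list the 2 largest called rises and falls per comparison, and the 3 genes nearest in pattern to the 3 genes with the widest range of group means.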

Additional observations from a re-analysis of the deposited data

How the results depend on the processing

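Each value was recomputed under 11 other settings and without each of 15 arrays. Not all of these could move a value: the series matrix held the same intensities, and some settings alter only the estimate of spread or the genes tested. Leaving out an array of a group not compared also keeps the log2 change. Of 2080 recomputed values of the 10 genes, 23 lost and 11 gained a call and 0 reversed, and of 2027 of the other named genes 109 lost a call and 0 reversed. A reversal was counted only where the main or the other fit called the value. A further 66 values changed sign without a call in either fit. The called genes among the 10 numbered 6 to 8 for arsenate in wild type with an array left out (8 with all). They numbered 1 to 2 in yap1, 0 in yap8 and 1 to 3 in y1y8 against treated wild type, 0 in y1y8 against yap1, 1 to 2 in y1y8 against yap8 and in yap1 against yap8, and 0 for the interaction test. Against untreated wild type they numbered 6 to 8 in yap1, 6 to 7 in yap8 and 7 to 9 in y1y8. With only the arrays of both groups in the fit, yap8 against untreated wild type gave 5 in place of 8. Of the 11 gained calls 8 were of SLN1 and 1 each of RGC1, GPD1 and HOT1. Genes called in y1y8 against yap1 numbered 4 to 9, with 8 without untreated replicate 2 and 9 without yap1 replicate 2. Replicate numbers did not pair the arrays consistently: deviations of same-numbered arrays correlated at −0.33 to 0.41, and 6 of 15 arrays correlated best with their own number. This check does not exclude pairing between some of the groups. With the replicate block, 7 of the 10 genes were called for arsenate in wild type, 1 in yap1, 0 in yap8 and 1 in y1y8, and over all genes 4521, 993, 5 and 1033. The cause of these shifts was not tested. Among the 10 genes, STL1 is the one for which signal limits what can be said. Of the other genes named, RCK1 and AQY1 were also dim, with mean signals of 26.6 and 20.0 in treated wild type. DAK2 was dim in untreated wild type (29.3). GUP2 (66.1 in treated wild type) and AQY2 (65.4 in yap1 and 68.0 in y1y8) were low as well.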
